A study of Mus musculus with 4 samples.

Results

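The genes described here are 7 genes of the GATA pathway: the cardiac factors Gata4, Gata5 and Gata6, the blood and endothelial factors Gata2 and Gata3, and the cofactors Zfpm1 and Zfpm2, which encode the FOG proteins. They were taken by name from 21938 protein-coding genes. Of the 54309 summits in the conservative CTCF peak list of heart, 72 lay in their gene bodies or within 100 kb of either gene end, 26 of them around the cardiac genes, 18 around Gata2 and Gata3 and 28 around the cofactors. A summit is the position of the highest signal within a peak. The list came from CTCF chromatin immunoprecipitation and sequencing of whole heart from adult female B6CASTF1/J mice aged 2 months. B6CASTF1/J is a first-generation hybrid between C57BL/6J and CAST/EiJ, and the lists do not separate the parental alleles. The only groups are pool G and pool H, labelled as biological replicates, each a pool of 2 heart biosamples sequenced as 2 technical libraries. No other tissue, genotype or treatment was compared, and signals from different cell types of the heart cannot be told apart. Gene expression was not measured, so the tissue label could not be checked against marker transcripts.

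GATA factors are zinc-finger proteins that bind DNA at words built around GATA. Gata4, Gata5 and Gata6 act in heart development, Gata2 in blood stem cells and endothelium, and Gata3 in T cells and several other lineages. FOG proteins bind GATA factors and modulate them: Zfpm1 (FOG1) is best known as the partner of GATA1 in red cells and platelets, and Zfpm2 (FOG2) as the partner of GATA4 in the heart. CTCF binds a core motif that has a direction, and together with the ring-shaped cohesin complex it anchors chromatin loops, most often between sites whose motifs point towards each other.

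The sites below were chosen from the strongest summits with a core motif in the windows and the nearest such summits beyond the gene ends. They are a selection: no site of Gata6 is printed, and for Gata3, Zfpm1 and Zfpm2 not every site of these kinds is. Each line gives the name of the gene, the distance of the summit from its outermost 5' end in the direction of transcription, the position on mm10 (GRCm38.p6) and the strand of the motif, then the reference sequence read 5' to 3' along that strand. Capitals mark the 12 bases of the core. The core was searched on both strands within 100 bp of each summit with at most 1 mismatch.
Gata4 at 75.7 kb (chr14:63195955-63195984, minus): ttgcattcaCCACGTGGGGGCacagacatt
Gata4 at -4.97 kb (chr14:63276641-63276670, minus): tcagacacaCCACAAGAGGGCgtcggattc
Gata4 at -86.5 kb (chr14:63358166-63358195, plus): agcatatgtCCACCAGGTGGCagtagtgtg
Gata5 at 83.2 kb (chr2:180251447-180251476, minus): tccttgtcgCCACTAGGGGGCatccaagaa
Gata5 at 29.96 kb (chr2:180304765-180304794, plus): tgtcacacaCCAGAAGAGGGCatcagatcg
Gata5 at -12.6 kb (chr2:180347300-180347329, minus): tcagtatggCCACCAGGGGGCgcccgtcgc
Gata2 at -80.6 kb (chr6:88113298-88113327, plus): gccttgtagCCACTAGAGGGCactccaaac
Gata2 at -42.3 kb (chr6:88151519-88151548, plus): ccagagaagCCAGAAGAGGGCatcagtcca
Gata2 at 23.9 kb (chr6:88217716-88217745, minus): ctaaagaggCCAGAAGAGGGCatcagattc
Gata3 at -10.3 kb (chr2:9900347-9900376, minus): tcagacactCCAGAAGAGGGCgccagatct
Zfpm1 at -22.6 kb (chr8:122259535-122259564, minus): cagtgcctaCCAGCAGTGGGCagcataccc
Zfpm1 at -8.82 kb (chr8:122273317-122273346, plus): ccagcctgaCCACCAGGTGGCagcatctac
Zfpm1 at 51.2 kb (chr8:122333336-122333365, minus): ccacagtagCCTGTAGAGGGCagcctcaat
Zfpm2 at 424.8 kb (chr15:41079818-41079847, minus): aagaaacagCCAGCAGGTGGCgctcagtgc
Zfpm2 at 508.0 kb (chr15:41163021-41163050, plus): ctcttctagCCACAAGAGGGCagcaacact

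The number of summits differed more between single genes than between the 3 groups. Per 100 kb of window (the gene body plus 100 kb on each side), the cardiac genes had 3.63 summits, Gata2 and Gata3 4.03 and the cofactors 3.10, beside a median of 3.68 over all protein-coding genes with quartiles of 1.78 and 5.85. Each group held a gene with many summits and a gene with few. Zfpm1 was the densest with 22 summits, or 8.62 per 100 kb, and 92.0% of genes had a lower density. Gata2 followed with 14 summits and 6.57 per 100 kb, then Gata5 with 13 and 6.20. Gata4 stood near the median of all genes with 9 summits and 3.30 per 100 kb. Gata3 and Gata6 had 4 summits each, at 1.72 and 1.71 per 100 kb, and Zfpm2 had the lowest density, 0.924 from 6 summits. Within the gene bodies alone the groups kept this order and lay further apart: Gata2 and Gata3 together had 10.8 summits per 100 kb, the cardiac genes 6.04 and the cofactors 1.19, over 5, 7 and 6 summits. Zfpm2 alone made up most of the cofactors' gene body length, at 449.6 kb. In all, 6 of the 7 genes had a summit in the gene body, beside 50.9% of all protein-coding genes, and Gata5, the shortest at 9.57 kb, had none.

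**Figure D1:**
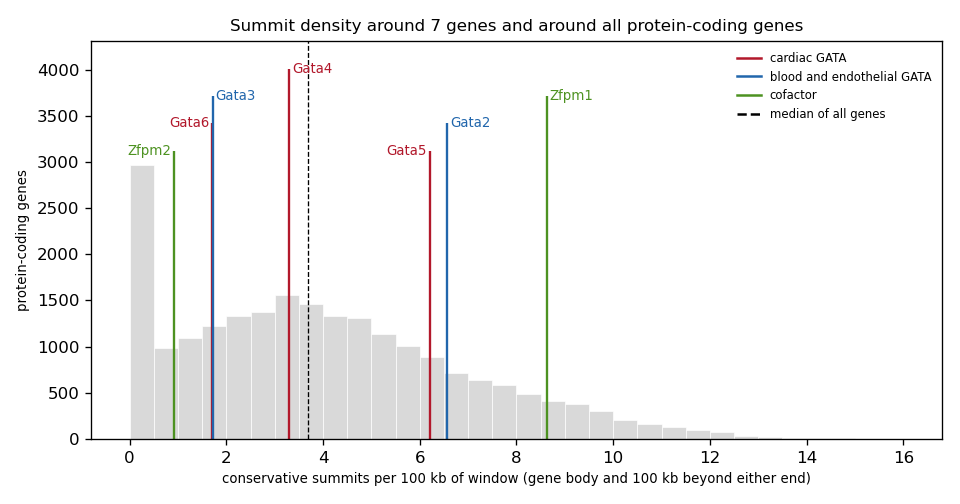
Summit density around the 7 genes (coloured lines) over the histogram of all protein-coding genes (grey bars, in steps of 0.5 summits per 100 kb). The x axis gives conservative summits per 100 kb of window and the y axis the number of genes; Gata4 lies near the dashed median of 3.68, Zfpm2, Gata6 and Gata3 lie to its left and Gata5, Gata2 and Zfpm1 to its right.

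The signal of a peak is the authors' own value from the peak caller and has no stated unit. Over the whole list it had a median of 286, quartiles of 134 and 579 and a maximum of 889. The 72 summits ranged from 19.8 to 858 with a median of 284, and 36 of them lay at or above the list median. The lowest, 19.8, lay upstream of Gata2 in a peak interval that overlapped that of a summit of 736. The median was 362 around the cardiac genes, with 14 of 26 summits at or above the list median. It was 232 around Gata2 and Gata3, with 7 of 18, and 305 around the cofactors, with 15 of 28. By single gene the medians were 181 for Gata4, 422 for Gata5, 236 for Gata6, 177 for Gata2, 284 for Gata3, 258 for Zfpm1 and 534 for Zfpm2. All 3 groups spanned nearly the whole range, and their ranges overlapped. In the second list that the authors made from both pools, the cardiac median was 181, below the 232 of Gata2 and Gata3, so the order of the groups by signal depended on the list. No test was made between groups of genes, since summits of 1 tissue are not replicates. The limit of 100 kb set which summits were counted: the nearest outside it were a summit of signal 487 at 100.2 kb from Gata4 and one of 338 at 102.8 kb from Gata5, and the farthest inside it were one of 316 at 98.3 kb from Zfpm1 and one of 28.2 at 98.0 kb from Gata5.

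**Figure D2:**
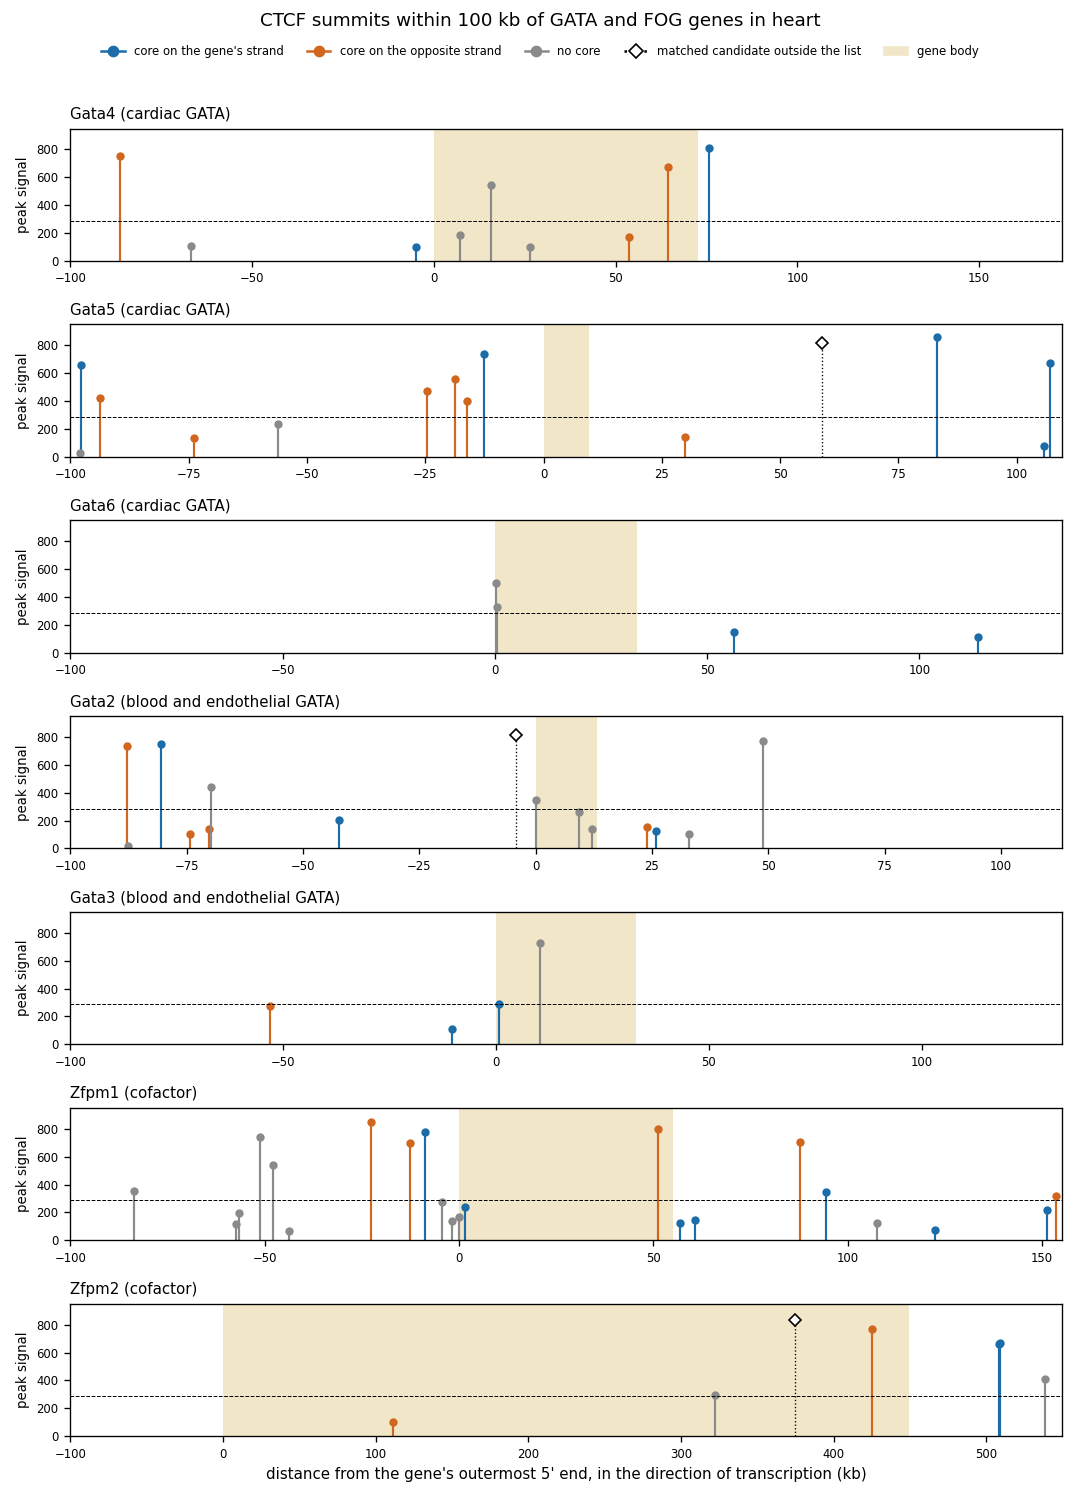
Conservative summits around each gene by distance from its outermost 5' end (x axis, kb, in the direction of transcription) and peak signal (y axis, no unit). Colours give the strand of the core relative to the gene, shading the gene body, the dashed line the list median of 286, and open diamonds the 3 matched candidates of high signal that are not in the conservative list; no summit stands within 100 kb upstream of Gata6 or Zfpm2.

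Gata4, on the minus strand of chromosome 14 (63198922 to 63271692), had 5 summits in its body, 3 upstream and 1 downstream. The strongest had a signal of 810 and lay 2.94 kb beyond the 3' end, between Gata4 and Neil2, a DNA glycosylase gene. Its signal was 436 in pool G and 378 in pool H, as a candidate that passed the threshold in neither pool alone. Within the body, all in introns, the signals were 672, 171, 101, 546 and 181 from the 3' to the 5' side. The summit of 546 had no core and near-equal signals in the pools, 272.3 and 271.7. The summit of 672 carried a core that was found equally well on both strands, so its direction is undefined. At the outermost 5' end no conservative summit was found, and the nearest, 4.97 kb upstream, had a signal of 99.9.

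Gata5, on the minus strand of chromosome 2 (180325133 to 180334699), had 9 summits upstream and 4 downstream, all intergenic. The strongest, 858, lay 83.2 kb downstream of the 5' end and had signals of 451 in pool G and 410.3 in pool H. It passed the threshold in neither pool alone and was absent from the second list of both pools. From -24.5 to -12.6 kb stood 4 summits with signals, from the gene outwards, of 739, 398, 559 and 469. The one nearest the gene carried its core on the strand of Gata5 and the other 3 carried theirs on the opposite strand. The nearest summit to the start site was 12620 bp away, and neither pool had even a candidate peak within 1 kb of that start. A core was present at 11 of the 13 summits.

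Gata6, on the plus strand of chromosome 18 (11052064 to 11085635), differed from the other cardiac genes in where its signal stood. Its strongest summits, of 499 and 327, shared 1 peak interval at the promoter, 105 bp upstream and 69 bp downstream of annotated start sites. In pool G these summits had signals of 253 and 177, and in pool H 244 and 148. Neither had a core. The other 2 summits, of 144 and 114, lay 56.4 and 113.7 kb downstream of the 5' end, and both had a core on the strand of the gene. The next core-bearing summit upstream was 166.1 kb away with a signal of 724.

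Gata2, on the plus strand of chromosome 6 (88193891 to 88207032), had 7 summits upstream, 3 in the body and 4 downstream. The strongest, 775, lay in an intron of Dnajb8, a chaperone gene, 48.9 kb from the 5' end of Gata2, and had no core. Upstream, a summit of 736 at -87.8 kb and one of 751 at -80.6 kb carried cores on opposite strands. The body summits decreased from the 5' to the 3' end: 349 in the 5' UTR, 263 in an intron and 139 in the 3' UTR, none with a core. The summit in the 3' UTR was the only one of those with candidates in both pools whose signal was lower in pool G, 63.3, than in pool H, 71.0.

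Gata3, on the minus strand of chromosome 2 (9857078 to 9890034), had 2 summits in the body, 2 upstream and none downstream. The strongest, 730, lay in an intron 10.3 kb from the 5' end and had no core. Its signal was 381 in pool G and 352 in pool H. A summit of 292 stood 610 bp from a start site, in an exon of a non-coding transcript of 9230102O04Rik, which GENCODE lists as a coding gene, with a core found equally well on both strands. The summits upstream had signals of 111 and 277, the latter in an intron of Taf3, which encodes a subunit of the general transcription factor TFIID. From the intronic summit to the downstream limit of the window, 122.7 kb held no summit.

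Zfpm1, on the plus strand of chromosome 8 (122282141 to 122337251), had 11 summits upstream, 3 in the body and 8 downstream. The strongest, 851, lay 22.6 kb upstream. It was present in the list of each pool but absent from the second list of both pools. Next came 799 in an intron, 337 bp upstream of an internal start site, and 780 at 8.82 kb upstream. The summit of 799 passed the threshold in pool H but not in pool G. The other body summits were 169 at 1 bp from the outermost start site, in the 5' UTR, and 242 in an intron. Zfpm1 lies among many genes, and of the neighbours whose start site is in the window, Zc3h18 and Cyba also had a promoter summit, whereas Trhr2 and Il17c did not.

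Zfpm2, on the plus strand of chromosome 15 (40655035 to 41104592), was the longest of the genes. Its 3 body summits were all intronic, with signals of 99.1, 294 and 772 at 111.2, 322.5 and 424.8 kb from the 5' end. The last had signals of 425 in pool G and 350 in pool H. The 3 downstream summits had signals of 662, 667 and 406, and the first and second of them had cores on the strand of the gene. No conservative summit was found in the 100 kb upstream, and the longest stretch without one inside the gene was 211 kb.

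A promoter summit, within 1 kb of any annotated start site of the gene, was found for 5 of the 7 genes, beside 34.6% of all protein-coding genes. Gata4, Gata6, Gata2, Gata3 and Zfpm1 had one, and Gata5 and Zfpm2 did not. For Gata4 it lay 120 bp upstream of an internal start site, with signals of 60.8 in pool G and 40.1 in pool H. For Gata3 the summit was 610 bp from a start site of that gene but nearer, at 148 bp, to one of 9230102O04Rik. Counting only the outermost 5' end left 4 of 7 genes, beside 27.1% of all genes. Within 5 kb of any start site the count was again 5 of 7, beside 53.8% of all genes. The 5 genes have 4 to 6 annotated start sites each, whereas Gata5 has 1 and Zfpm2 has 3. The second list added Zfpm2, through a summit of 89.0 at 864 bp from a start site. The 7 promoter summits of these 5 genes had a median GC content of 65.7% within 100 bp of the summit, beside 54.2% for the other 65 summits and 48.3% over the whole list. Only 2 of the 7 had a core, those of Gata3 and the internal start of Zfpm1, against 42 of the 65. The 2 promoter summits of Gata6 share 1 peak interval. No GC content or core share was computed for promoter summits of the whole list, so these values have no like background beside them.

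The core motif was present at 44 of the 72 summits, or 61.1% with an exact 95% binomial interval of 48.9 to 72.4%, beside 66% of the whole list. That interval and those below cover counting error over summits only. The share was 69.2% around the cardiac genes (48.2 to 85.7%), 55.6% around Gata2 and Gata3 (30.8 to 78.5%) and 57.1% around the cofactors (37.2 to 75.5%), and these intervals overlap. Single genes differed within the groups: 5 of 9 summits had a core for Gata4, 11 of 13 for Gata5 and 2 of 4 for Gata6. It was 7 of 14 for Gata2, 3 of 4 for Gata3, 12 of 22 for Zfpm1 and 4 of 6 for Zfpm2. With at most 2 mismatches allowed the order was reversed, at 73.1% for the cardiac genes, 100% for Gata2 and Gata3 and 96.4% for the cofactors. No share over the whole list or over windows away from summits is given for that setting, so these values have no background beside them. An exact core stood at 42.3%, 33.3% and 21.4% of the summits of these groups, beside 33.0% of the whole list. Among summits at or above the list median the core stood at 24 of 36, beside 75.4% of such summits in the whole list, and below it at 20 of 36, beside 56.6%. Windows of the same size 1 kb away from summits of the list, on chromosomes without any of the 7 genes, held a core in 5.75%. The words AGATAA and TGATAA, which GATA factors bind, were found on either strand within 100 bp of 6 of the 72 summits, beside 12.7% of the whole list; a match of letters is not a measured site.

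Exact copies of 1 word, CCAGAAGAGGGC, stood at 10 of the 72 summits, or 10 of the 44 with a core, around all of these genes but Gata4. Their signals were 72.5 to 316 with a median of 143, and 1 of the 10 was above the list median. In 8 of the 10, over 50% of the surrounding bases were soft-masked, the mark for repeats in the reference genome. In the whole list the same word stood at 12.4% of all summits, or 6754 of the 35846 with a core. The median signal there was 163, and 85.4% of those summits were mostly soft-masked. The 13 summits with another exact word had a median of 671, beside 539 for that class in the whole list, and 11 of them were above the list median. The 21 summits with 1 mismatch had a median of 349, beside 379 in the whole list. The 28 without a core had 250, beside 193. The split by word was chosen after the data had been seen.

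**Figure D3:**
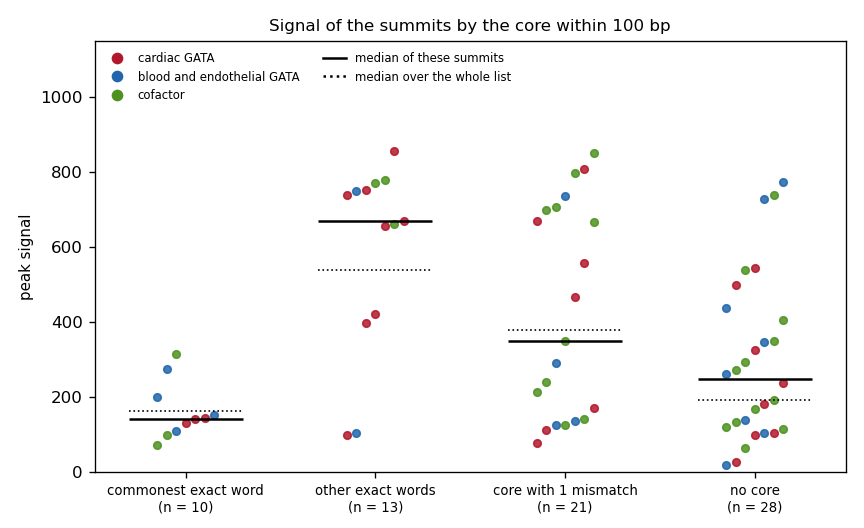
Peak signal (y axis, no unit) of the 72 summits by the core found within 100 bp, 1 point per summit, coloured by group of genes. Solid bars give the median of these summits and dotted bars the median of the same class over the whole list; the commonest exact word had 143 and 163, other exact words 671 and 539.

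Of the cores, 23 lay on the strand of the gene and 21 on the opposite strand, including 3 found equally well on both. The nearest core-bearing summits beyond the 2 ends of each gene formed a convergent pair, with the motifs pointing towards the gene from both sides, at 3 of the 7 genes, beside 27.9% of all protein-coding genes. These were Gata5, with a pair 42.6 kb apart, Gata2, with 66.2 kb, and Gata3, with 369.4 kb. The median distance over all genes was 106.8 kb. The Gata5 pair joined a summit of 739 upstream to one of 142 downstream, the Gata2 pair summits of 201.2 and 152, and the Gata3 pair summits of 111 and 87.3. The commonest word was the core on the downstream side of Gata5, on both sides of Gata2 and on the upstream side of Gata3. Gata4, Zfpm1 and Zfpm2 had pairs with both motifs on 1 strand, 80.7, 65.7 and 939.6 kb apart, and Gata6 had a divergent pair 222.5 kb apart. The Zfpm1 pair joined a summit of 780 upstream to one of 126 at 1.8 kb beyond the 3' end. The Zfpm2 pair joined a summit of 86.4 at 431.6 kb upstream to one of 662 downstream.

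The count of convergent pairs depended on how a motif was defined. Besides the core, 3 versions of a 20-base matrix learned from these data were tried, each defined after the calls of the one before had been seen. They gave 1, 3 and 2 convergent pairs among the 7 genes, and called 14, 23 and 29 of the 72 summits. The third called 46.7% of the whole list, and under it Gata2 and Gata3 had a convergent pair and Gata5 a tandem one.

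The pools gave similar pictures of these summits. Within 100 bp, 59 of the 72 had a summit in the thresholded lists of both pools, beside 83.6% of the whole list, 5 had one in pool G alone, 2 in pool H alone and 6 in neither. The thresholds rest on the irreproducible discovery rate (IDR), a measure of how well 2 rankings of peaks agree, and not on signal alone. The strongest summits of Gata4 (810) and Gata5 (858) were among the 6 in neither list. That of Gata5 was also absent from the second list of both pools, as was the strongest of Zfpm1 (851). In the ranked lists of all candidates, 70 of the 72 had a signal in both pools. The ratio of pool G to pool H had a median of 1.21, a range of 0.892 to 1.88, and was above 1 at 69 of the 70, beside a median of 1.23 over the whole list. The median ratio was 1.22 for the cardiac genes, 1.18 for Gata2 and Gata3 and 1.22 for the cofactors. How the signal depends on sequencing depth, which is unknown here, was not tested, so the ratio is given as a description.

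**Figure D4:**
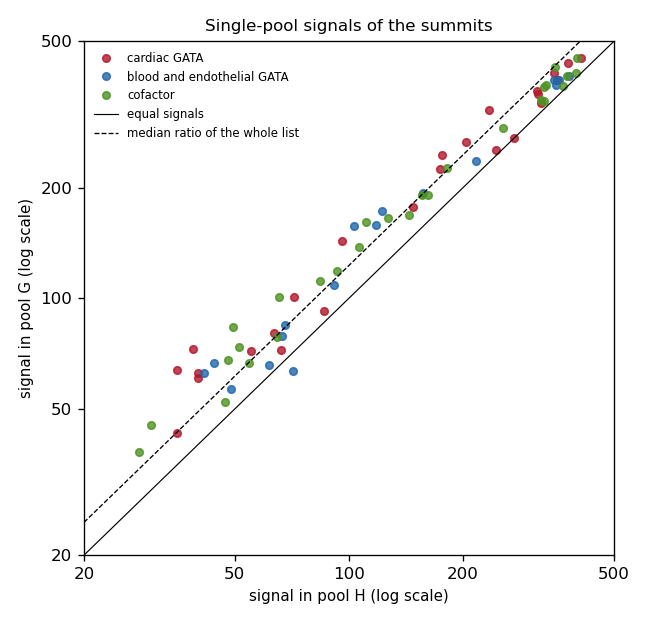
Signal of the candidate peak in pool H (x axis) and pool G (y axis), both on a log scale, for the 70 summits with a candidate in both pools, coloured by group of genes. The solid line marks equal signals and the dashed line the median ratio of 1.23 of the whole list; 69 of the 70 points lie above the solid line.

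Sites of high signal were also missing from the conservative list. In the authors' list of candidates matched between the pools, 39 candidates in the 7 windows had a signal at or above the conservative median, and 3 of them were absent from the conservative list. All 3 had a core, beside 345 of 425 such absent candidates in the whole matched list (81.2%). The 3 sites exceeded 98.9% or more of the conservative summits in signal. In the thresholded lists they appeared for pool H only.

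The absent sites are printed in the same way as above, since each would be among the strongest of its window.
Gata2 at -4.25 kb (chr6:88189623-88189652, plus): aacgcgaagCCGCCAGGTGGCgctctgaac
Gata5 at 58.8 kb (chr2:180275912-180275941, plus): gccaagactCCACAAGGGGGCgcctgagac
Zfpm2 at 374.9 kb (chr15:41029895-41029924, minus): gagcagcgaCCACCAGGTGGCgccaaccta

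The Gata2 site had a signal of 812, with 448 in pool G and 367 in pool H, and stood closer to the start site than any conservative summit upstream. The Gata5 site had 813, with 456 and 363, and the site in a Zfpm2 intron had 836, with 456 and 387. Their scaled IDR values were 335, 67 and 67, where 540 is the authors' minimum. In the whole matched list 425 of 27580 candidates at or above the conservative median (1.54%) were absent, and 388 of 1372 with a signal of at least 800 (28.3%). With these 3 sites added, the number of genes with a convergent pair was again 3.

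Other genes of the pathway were described by 3 lists of 8 genes. Over all protein-coding genes, 34.6% had a promoter summit and the median density was 3.68 summits per 100 kb, and the lists lay on both sides of these values. Of the cardiac partners of GATA factors, 2 of 8 (25%) had a promoter summit, Tbx20 and Srf, and the list had a median of 2.98 summits per 100 kb. Nkx2-5, a homeodomain factor that acts with GATA4, had none nearer than 20179 bp. Of the blood and endothelial partners, 4 of 8 (50%) had a promoter summit (Lmo2, Fli1, Erg and Ldb1), with a median of 4.66 per 100 kb, and Klf1, a red cell factor, was the densest with 12.3. Gata1, the partner of FOG1, had 8 summits in its window, the nearest 39280 bp from a start site. Of the other genes with GATA-type zinc fingers, 3 of 8 (37.5%) had a promoter summit (Rere, Gatad1 and Gatad2a), with a median of 5.55.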

How the data were processed

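CTCF peaks of 2 pools (4 libraries) were used from 7 of the 8 deposited lists, on mm10 per the labels. Which list came from which pool was taken from the deposited readme texts. The aligner is not stated in the sources used here, nor is the caller. The authors deposited the caller's signal of each peak without a unit, and a scaled IDR score, on which 540 corresponds to an IDR of 0.05 and 830 to one of 0.01. Read depth is unknown.

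Computed here, in Python 3.11.15 with pandas 2.3.3, numpy 2.4.6 and scipy 1.17.1 (figures: matplotlib 3.10.9), were summits in windows of the gene body and 100 kb on either side (GENCODE M21), the nearest annotated start sites, and the 12-base CTCF core in GRCm38.p6 with at most 1 mismatch within 100 bp. The core with the fewest mismatches, then nearest the summit, was kept. The search was tested on simulated data. Single-pool signals came from candidates within 100 bp. Where the matched list names 2 signals, 71.7% of those taken as pool H and 77.3% of those taken as pool G were identical to a record of that pool, and none crosswise.

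The members and gene lists were chosen with earlier results of these data known, and no tests between genes were made. Named in full, by rule, were the strongest summit of each window, summits in gene bodies or within 1 kb of a start site, and the nearest core-bearing summits beyond the gene ends; other values are given as ranges or were chosen after they had been seen. Use of the matched list, the sites absent from the conservative list, the split by core word and the stretches without summits were also added after seeing the data.

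A matrix of the core with 4 bases on either side was learned on chromosomes without these genes, in 3 rounds, and called above the score of 1% of windows 1 kb from a summit. The first version, learned from exact cores and refitted on all hits, was replaced because 70.8% of its calls were mostly soft-masked. The second, refitted outside soft-masked sequence, called 31.5% of the list and none of the summits without a core, and was replaced by the third, learned from cores with at most 1 mismatch. A coding error that kept the threshold of the later versions from being reset in each round was corrected after their calls had been seen, and the values given are the corrected ones.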

Additional observations from a re-analysis of the deposited data

How the results depend on the processing

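The second list, each pool's list alone, the scaled IDR of at least 830 and, for the density, windows of 50 or 200 kb kept each group's count per 100 kb within 1.5 times its value; gene bodies alone gave 6.04 (cardiac), 10.8 (Gata2 and Gata3) and 1.19 (cofactors). The number of summits follows the window: at 50 kb it was 15, 11 and 17 in these groups and 43 in all, at 200 kb 51 and 33 for the GATA groups and 126 in all, and in gene bodies 7, 5, 6 and 18. An exact core was found at 42.3% of cardiac, 33.3% of Gata2 and Gata3, 21.4% of cofactor and 31.9% of all summits, beside 33.0% of the whole list. At most 2 mismatches gave 73.1% for the cardiac genes, 100% for Gata2 and Gata3, 96.4% for the cofactors and 88.9% for all. The first matrix gave 19.2% (cardiac), 27.8% (Gata2 and Gata3), 14.3% (cofactors) and 19.4% (all), with 1 convergent pair. The second gave 42.3% (cardiac), 33.3% (Gata2 and Gata3), 21.4% (cofactors) and 31.9% (all), and the third 46.2%, 38.9%, 35.7% and 40.3%. The pool lists alone gave 4 (pool G) and 3 (pool H) convergent pairs, and 6 and 4 genes with a promoter summit. No paired analysis was possible because the 2 pools are biological replicates of 1 condition and no other condition was compared, and no result comes from a test. Read depth, mappability and reads of the CAST/EiJ allele on the reference were not tested.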
